A study of Mus musculus with 24 samples.

Results

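Igf2bp3 and Gpc3, a pair of genes known from embryos and tumours, were high in newborn mouse intestine and in organoids grown from fetal intestine, and lower in adult intestine and in adult organoids. They belong to 6 oncofetal RNA-binding and growth genes, Igf2bp1, Igf2bp2, Igf2bp3, Lin28b, Hmga2 and Gpc3, that were looked for among the 30142 genes the arrays measured under 1 symbol. Of these 6, 4 had a probe set naming that gene alone, 1 each, and are described. Igf2bp1 shared its probe set with the microRNA gene Mir3063 and Igf2bp2 was named by no probe set, so both are not analysed here. Igf2bp3 and Gpc3 were chosen by their log2 levels on these same arrays, as genes that stayed higher in fetal than in adult organoids at day 30, and the others were listed with these data known. That contrast is therefore given as a description, with no test. Tests of day 30 against day 3 also use those day 30 levels, so for this pair they are not independent of the choice.

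RNA was measured on 24 one-colour arrays, 4 for each of 6 groups. The groups were adult organoids at day 30 and at day 3 of culture, fetal organoids of stage E19 at day 30 and at day 3, adult intestine, and P0 intestine, from the day of birth. Organoids are epithelial structures grown from intestine in gel, here in ENR, a medium named for its EGF, Noggin and R-spondin. The labels give no strain, sex, gut segment or adult age, and do not say whether the 4 samples of a group came from separate animals or cultures, so p-values measure the spread between samples, which may be technical. Values are log2 signals, in which 1 unit is a 2-fold difference, and the number of arrays limits their precision.

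The IGF2BP proteins bind messenger RNAs, among them those of Igf2 and Myc, and govern their stability, location and translation; they are made widely in embryos, are scarce in most adult tissues and return in many tumours. LIN28B binds precursors of the let-7 microRNAs and blocks their maturation, and mature let-7 represses a set of growth genes that includes Hmga2, Lin28b itself and the Igf2bp genes. HMGA2 is a chromatin protein of embryonic and tumour cells, and GPC3 is a heparan sulfate proteoglycan of the cell surface that restrains growth in the embryo, binds hedgehog ligands and marks liver cancer.

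The promoters of the pair that differed by age, Igf2bp3 and Gpc3, are shown because these genes moved together between ages. Each runs from 250 bases before to 50 bases after the gene's start (RefSeq, GRCm38.p6). Igf2bp3 lies at chr6:49214905-49215204 and Gpc3 at chrX:52613925-52614224, both on the minus strand and printed 5′ to 3′. Capitals mark an E box (CACGTG) or a GC box (GGGCGG or, on the other strand, CCGCCC), and no match of one overlapped another.
Igf2bp3: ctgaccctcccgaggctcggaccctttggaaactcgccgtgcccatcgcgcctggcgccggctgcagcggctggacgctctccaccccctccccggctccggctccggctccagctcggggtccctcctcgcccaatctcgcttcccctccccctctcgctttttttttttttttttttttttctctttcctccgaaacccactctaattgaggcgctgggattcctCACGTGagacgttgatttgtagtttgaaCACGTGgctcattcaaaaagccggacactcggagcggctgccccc
Gpc3: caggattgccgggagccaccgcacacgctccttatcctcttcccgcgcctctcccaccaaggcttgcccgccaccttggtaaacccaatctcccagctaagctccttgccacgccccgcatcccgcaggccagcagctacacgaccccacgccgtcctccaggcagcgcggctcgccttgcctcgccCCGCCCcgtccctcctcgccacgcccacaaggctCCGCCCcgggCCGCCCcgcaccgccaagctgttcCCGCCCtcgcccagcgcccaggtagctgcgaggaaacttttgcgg
The Igf2bp3 window held 2 E boxes and 0 GC boxes, and the Gpc3 window held 4 GC boxes and 0 E boxes. Searched on both strands, an E box was present in 7.15% and a GC box in 35.7% of 32851 mouse promoter windows of the same length. CpG pairs numbered 25 in the Igf2bp3 and 30 in the Gpc3 window, against a median of 7, and 81.6% and 88.3% of windows held fewer. These are matches of letters, and binding was not measured.

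Several arrays stood apart. Member results that they decide, and day 3 list results that lean on fetal day 3 arrays 2 and 3, are given with and without them, for the lists as an alternative added after the data were seen. Stomach markers averaged 7.87 and 7.74 on fetal day 3 arrays 2 and 3, 6.21 on array 1 and 4.79 on array 4, against 3.93 to 4.96 on the arrays of the other 5 groups. Pancreatic acinar markers followed the same order, at 7.53 and 7.51 on fetal day 3 arrays 2 and 3, 5.83 on array 1 and 4.59 on array 4, and read 5.65 on adult day 3 array 1. That array also carried the fibroblast gene Dcn at 8.88, against 4.15, 4.08 and 4.73 on the other adult day 3 arrays. Xist, the RNA of the inactive X chromosome, read 10.60 and 10.53 on P0 arrays 1 and 4 and 3.81 and 4.01 on P0 arrays 2 and 3. It read 9.81 to 11.58 in all organoids and 3.77 to 4.24 in adult tissue, while the Y-linked Kdm5d, Uty and Eif2s3y lay below background in the means of adult organoids and above it in those of the other groups. The part of sex in the results was not tested. All 8 epithelial markers lay above the negative control probe sets in every group, with means per array of 9.52 to 10.40. Negative control probe sets had group levels of 3.93 to 4.40, taken as background. A further set of background control probes, not used for this level, averaged 3.03 to 4.035 per array. The 4.035 belonged to fetal day 3 array 1, which also had the highest median over all genes, 5.221.

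Age parted Igf2bp3 and Gpc3 both in tissue and in young cultures. In adult against P0 tissue, Igf2bp3 and Gpc3 fell and Hmga2 passed no test, so 2 of the 3 members above background were called at a limma adjusted p under 0.05, where 27.3% of all 30142 genes were called, 15.0% as higher and 12.3% as lower. In adult against fetal organoids at day 3, all 3 fell, where 24.6% of genes were called, 14.6% as higher and 10.1% as lower. At day 30 against day 3, Gpc3 and Hmga2 fell in fetal organoids, 2 of 3, where 15.7% of genes were called, 6.81% as higher and 8.85% as lower. In adult organoids 0 of 3 members were called at day 30 against day 3, where 0.00995% of genes (3, all lower) were called by limma, 0.0% as higher, and 2553 had an unadjusted p under 0.05. Fetal day 3 organoids against P0 tissue gave 2 calls of 3, Hmga2 higher and Gpc3 lower, where 44.5% of genes were called, 30.6% as higher and 13.9% as lower. Adult day 3 organoids against adult tissue gave 1 call, Hmga2 higher, where 35.6% of genes were called, 22.1% as higher and 13.5% as lower. These comparisons share arrays and are not independent of each other.

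**Figure D1:**
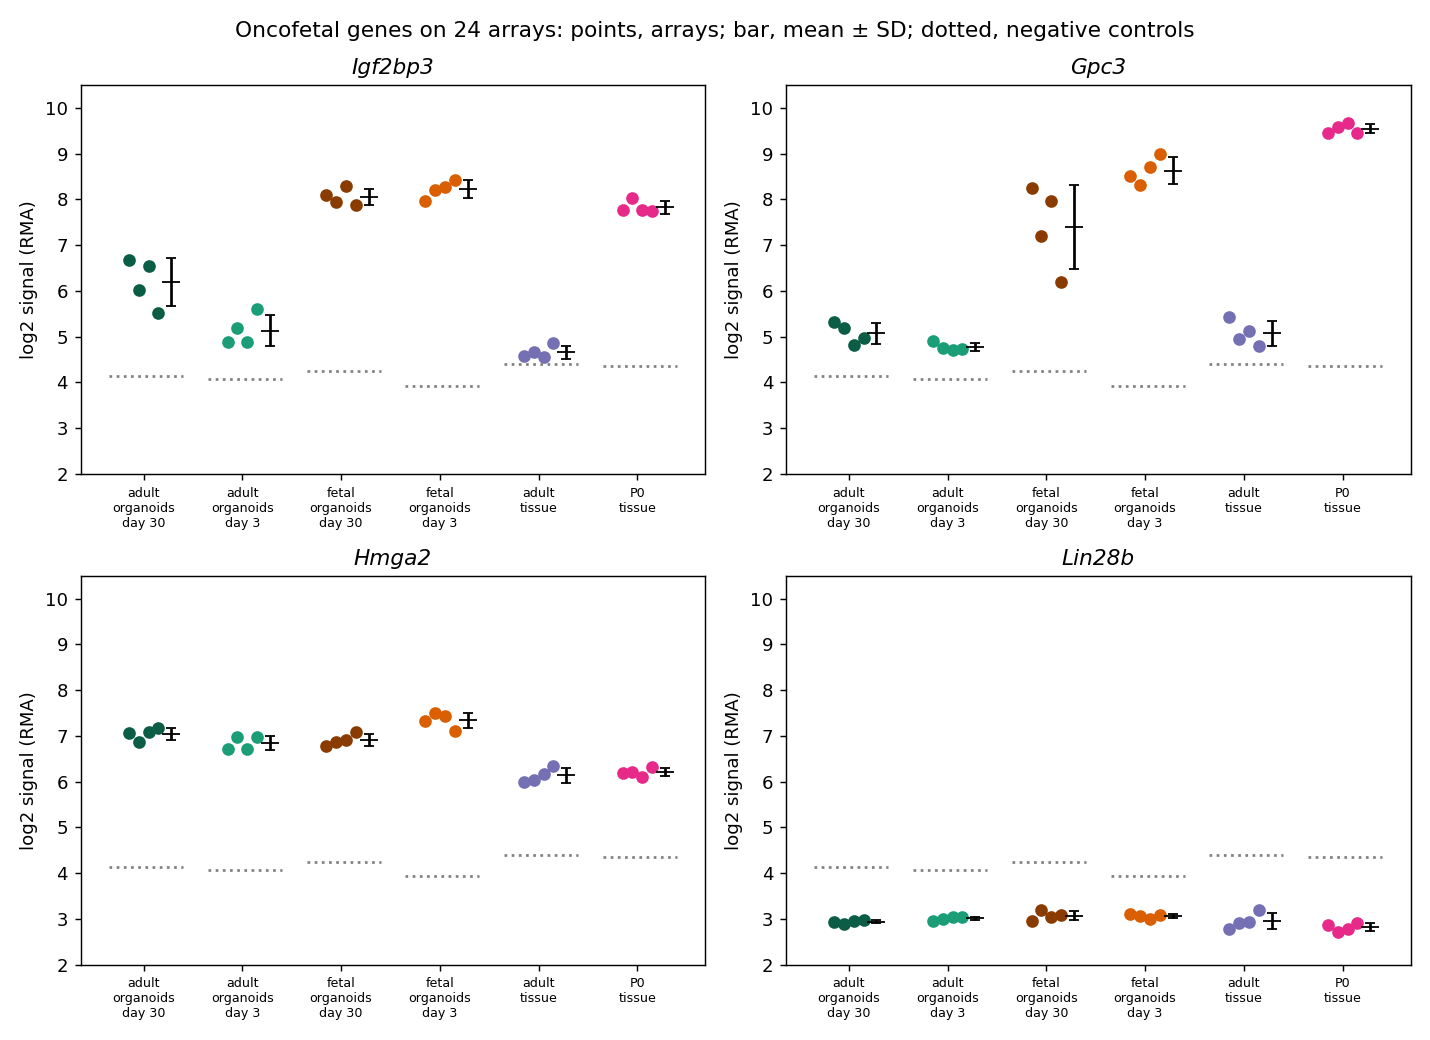
Log2 signal (RMA) of Igf2bp3, Gpc3, Hmga2 and Lin28b on each of 24 arrays, by group (4 arrays each). Points are arrays in replicate order, bars are mean ± SD, and dotted lines are the group's negative control level; Igf2bp3 and Gpc3 are high in fetal organoids and P0 tissue, Hmga2 is higher in organoids than in tissue, and Lin28b lies below the dotted line in every group.

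Igf2bp3, the IGF2BP paralog (transcript cluster TC0600002237.mm.1), differed between ages in tissue and in culture. Its 4 arrays read 4.57, 4.67, 4.55 and 4.86 in adult tissue, against 7.76, 8.03, 7.76 and 7.75 in P0 tissue. The 2 tissue groups did not overlap, and adult tissue lay just above its negative control level of 4.40. The difference was -3.16 ± 0.19 (SE), an 8.96-fold fall (limma, adjusted p = 1.1e-11). In whole tissue, fewer cells that make a gene's RNA and less of that RNA per cell cannot be told apart. The difference was -3.09 without the 2 P0 arrays that lack Xist and -3.23 without the 2 that carry it.

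In organoid culture Igf2bp3 also differed between ages. Igf2bp3 read 4.88, 5.18, 4.88 and 5.60 in adult organoids at day 3, against 7.96, 8.21, 8.28 and 8.43 in fetal organoids at day 3. No adult array came near a fetal one. The difference was -3.09 ± 0.19 (SE), or 8.49-fold lower in adult organoids (limma, adjusted p = 2.3e-10). It ranged from -3.24 to -3.00 as each array was left out in turn. The age difference in day 3 organoids and that in tissue differed by 0.08 ± 0.27 (SE), and limma's test of this, added after the data were seen, gave an adjusted p of 0.86. Adult tissue lay just above background, which limits the tissue difference, so equal size is not read from this.

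Over culture, the change of Igf2bp3 passed no test in organoids of either age. These tests share the day 30 levels by which the gene was chosen. Fetal arrays read 8.10, 7.95, 8.29 and 7.87 at day 30, within the range of the 4 day 3 arrays but for the lowest 2. The change was -0.17 ± 0.19 (SE), with a 95% interval of -0.56 to 0.23 (limma, adjusted p = 0.62). Adult arrays at day 30 read 6.68, 6.02, 6.55 and 5.51, and the lowest of them lay below the highest adult day 3 array, 5.60. The adult change was 1.06 ± 0.19 (SE), with an unadjusted p of 1.4e-05 and a limma adjusted p of 0.054, which missed the threshold. The adjusted p was 0.0021 without adult day 30 array 4 (change 1.28), 0.014 without adult day 3 array 4 (1.21), 0.034 without adult day 30 array 3 (0.94) and 0.045 without adult day 3 array 2 (1.07), and it reached 0.35 at most over the alternatives tried. At day 30 the adult mean was 6.19 ± 0.53 and the fetal mean 8.05 ± 0.18 (SD, n = 4 each), a difference of -1.86 or 3.63-fold.

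Day 3 organoids and tissue of like age did not differ past the test in Igf2bp3. Fetal day 3 organoids averaged 8.22 ± 0.20 and P0 tissue 7.83 ± 0.14 (SD, n = 4 each), a difference of 0.39 ± 0.19 (SE) with a limma adjusted p of 0.096. The median of all genes in that comparison was 0.14. Adult day 3 organoids averaged 5.13 ± 0.34 and adult tissue 4.66 ± 0.14 (SD, n = 4 each), a difference of 0.47 ± 0.19 (SE) with a limma adjusted p of 0.059. The adult organoid and adult tissue arrays did not overlap. In order of level, fetal day 3 organoids, fetal day 30 organoids and P0 tissue overlapped as neighbours, and a gap of 1.63 followed before adult day 30 organoids, adult day 3 organoids and adult tissue.

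Lin28b, the let-7 blocker (TC1000002111.mm.1), gave no signal above background in any group. Its 24 arrays read 2.71 to 3.19, below each group's negative control level. Group means were 2.94 and 3.01 in adult organoids at day 30 and day 3, 3.07 and 3.06 in fetal organoids at day 30 and day 3, 2.95 in adult tissue and 2.82 in P0 tissue. Values below background have no order, so no difference is read from them, and this does not show that the RNA was absent.

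Hmga2, the chromatin protein (TC1000003023.mm.1), was higher in organoids than in tissue at both ages. It read 6.72, 6.97, 6.71 and 6.97 in adult organoids at day 3 and 5.99, 6.03, 6.17 and 6.35 in adult tissue. Every organoid array lay above every tissue array. The difference was 0.71 ± 0.10 (SE), a 1.64-fold rise (limma, adjusted p = 4.1e-06). In fetal organoids at day 3 it read 7.33, 7.50, 7.43 and 7.11, against 6.18, 6.22, 6.11 and 6.32 in P0 tissue. These groups lay apart by 1.13 ± 0.10 (SE), a 2.20-fold rise (limma, adjusted p = 9.2e-09).

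Age separated Hmga2 in young cultures but not detectably in tissue. Adult minus fetal organoids at day 3 gave -0.50 ± 0.10 (SE), 1.41-fold (limma, adjusted p = 0.00074), and the 2 groups did not overlap. Adult minus P0 tissue gave -0.07 ± 0.10 (SE), with a 95% interval of -0.28 to 0.14 (limma, adjusted p = 0.63). The difference between these age differences was -0.42 ± 0.14 (SE), with a limma adjusted p of 0.03 in a test added after the data were seen, by which 26.7% of genes were called. It missed the threshold with arrays centred on their medians (-0.31, adjusted p = 0.11), without fetal day 3 arrays 2 and 3, which carry stomach markers (-0.30, adjusted p = 0.15), and without P0 arrays 2 and 3 (-0.39, adjusted p = 0.11). It also missed it when any of 7 single arrays was left out. At day 30 Hmga2 read 6.77, 6.87, 6.91 and 7.09 in fetal organoids, below all 4 day 3 values, a fall of 1.35-fold (-0.43 ± 0.10 SE, limma adjusted p = 0.0041). Without fetal day 3 arrays 2 and 3 that change was -0.31 (adjusted p = 0.11). Adult organoids at day 30 read 7.06, 6.87, 7.09 and 7.17, 0.20 ± 0.10 (SE) above day 3, which passed no test (limma, adjusted p = 0.61). The adult and fetal groups overlapped at day 30, with means of 7.05 ± 0.13 and 6.91 ± 0.13 (SD, n = 4 each).

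Gpc3, the surface proteoglycan (TC0X00002211.mm.1), showed the widest age gap of the members. It read 5.42, 4.95, 5.12 and 4.80 in adult tissue, against 9.46, 9.57, 9.67 and 9.46 in P0 tissue. The fall was -4.47 ± 0.27 (SE), or 22.1-fold (limma, adjusted p = 1.1e-11). Gpc3 is X-linked, and read 9.46 and 9.46 on the P0 arrays with Xist and 9.57 and 9.67 on those without it. At day 3, adult organoids read 4.90, 4.75, 4.71 and 4.72, against 8.50, 8.32, 8.70 and 8.99 in fetal organoids. That difference was -3.86 ± 0.27 (SE), 14.5-fold (limma, adjusted p = 1.2e-09). Adult tissue averaged 5.07 and adult day 3 organoids 4.77, beside negative control levels of 4.40 and 4.07. Such low signals limit how large both differences could read. The age differences in day 3 organoids and in tissue differed by 0.61 ± 0.38 (SE), which passed no test (limma, adjusted p = 0.25, added after the data were seen).

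Gpc3 fell in fetal organoids over culture, with a wide spread between arrays. The gene was chosen by its day 30 levels, so tests over culture are not independent of that choice. The 4 arrays at day 30 read 8.25, 7.21, 7.96 and 6.19, all below the lowest day 3 array, 8.32. Their SD of 0.92 was over 3 times that at day 3, 0.29. The fall was -1.23 ± 0.27 (SE), or 2.34-fold (limma, adjusted p = 0.0028). It was -0.82 without fetal day 30 array 4 (adjusted p = 0.0046), and in a fit of these 2 groups alone the adjusted p was 0.08. Other markers moved with it: 10 of 11 mesenchyme markers (median -1.15), 8 of 9 stomach markers (-2.69) and 6 of 7 pancreatic markers (-2.05) fell in the same comparison. Of all genes 8.85% fell in it. Without fetal day 3 arrays 2 and 3, 6 of 11 mesenchyme, 4 of 9 stomach (median -0.93) and 3 of 7 pancreatic markers (-0.70) fell. Gpc3 fell there by -1.34 (limma, adjusted p = 0.014). Fetal day 30 arrays 1 and 3, the highest in Gpc3, were also the highest of the 4 in mean mesenchyme marker level, at 5.23 and 5.36 beside 5.06 and 5.09 on arrays 2 and 4. The part of these cells in the fall was not tested. Adult organoids read 5.31, 5.18, 4.81 and 4.97 at day 30, and their change of 0.30 ± 0.27 (SE) passed no test, with a 95% interval of -0.26 to 0.86 (limma, adjusted p = 0.89). At day 30 the adult mean was 5.07 ± 0.22 and the fetal mean 7.40 ± 0.92 (SD, n = 4 each), a difference of -2.33 or 5.03-fold without overlap. Among all genes, 4.31% were lower without overlap in adult than in fetal organoids at day 30, and since the genes were chosen for this contrast nothing more is read from it.

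Gpc3 was lower in fetal day 3 organoids than in P0 tissue by -0.91 ± 0.27 (SE), 1.88-fold (limma, adjusted p = 0.0094). The call was lost without fetal day 3 arrays 2 and 3 (-0.80, adjusted p = 0.07) and without P0 arrays 2 and 3 (-0.84, adjusted p = 0.076). Adult day 3 organoids and adult tissue differed by -0.30 ± 0.27 (SE), which passed no test (limma, adjusted p = 0.45). In order of level, P0 tissue, fetal day 3 organoids and fetal day 30 organoids each stood clear of the next, a gap of 2.33 followed, and the 3 adult groups overlapped.

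Markers of mesenchyme and smooth muscle, cells in which GPC3 is also made in embryos, moved with part of these differences. The mean of the 11 measured of 12 markers was 6.95 to 7.49 per array in adult tissue and 8.31 to 8.92 in P0 tissue, and 10 of the 11 fell (limma). At day 3 it was 5.14 to 6.08 in adult organoids and 5.92 to 6.75 in fetal organoids, with 9 of 11 lower, and 4 of 11 without fetal day 3 arrays 2 and 3. The 6.08 belonged to adult day 3 array 1, where Gpc3 read 4.90. At day 30 it was 5.06 to 5.20 in adult and 5.06 to 5.36 in fetal organoids, with Dcn and Lum below the negative controls in both groups. Endothelium markers were lower in 7 of 7 in adult tissue and in 4 of 7 in adult day 3 organoids. Of 7 leukocyte markers, 6 were higher and 1 lower in adult tissue, and 3 were lower in adult day 3 organoids. These day 3 counts of 4 and 3 were the same without fetal day 3 arrays 2 and 3. Among all genes 12.3% were lower and 15.0% higher in adult than in P0 tissue. In adult against fetal organoids at day 3, 10.1% were lower and 14.6% higher. The part of mesenchyme, endothelium and leukocytes in the differences of the members was not tested.

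**Figure D2:**
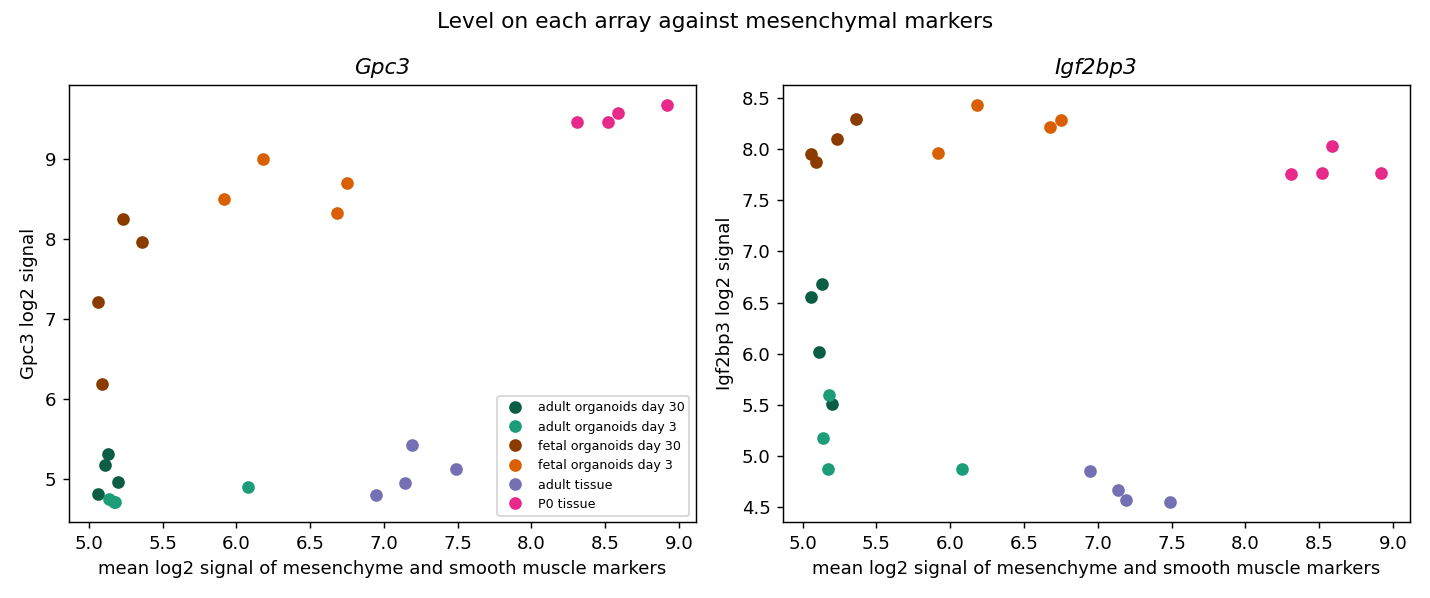
Log2 signal of Gpc3 (left) and Igf2bp3 (right) on each of 24 arrays against the mean log2 signal of 11 mesenchyme and smooth muscle markers, coloured by group. P0 tissue is highest in the markers, at 8.31 to 8.92, adult tissue follows at 6.95 to 7.49 and organoids lie at 5.06 to 6.75; the genes were chosen for their day 30 levels, which are shown as a description.

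The age difference of the pair was smaller at day 30 than at day 3. For Igf2bp3 60.3% and for Gpc3 60.4% of the log2 difference between adult and fetal organoids at day 3 was left at day 30. The fetal change less the adult change was -1.22 for Igf2bp3, made up of -0.17 in fetal and 1.06 in adult organoids. For Gpc3 it was -1.53, made up of -1.23 in fetal and 0.30 in adult organoids. For Hmga2 it was -0.63, and the age difference was 0.14 at day 30 and -0.50 at day 3. These figures hold the day 30 contrast and carry no test. Gpc3 was low in adult organoids, at 4.77 at day 3 and 5.07 at day 30, which limits its percentage. The negative control levels there were 4.07 and 4.13.

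**Figure D3:**
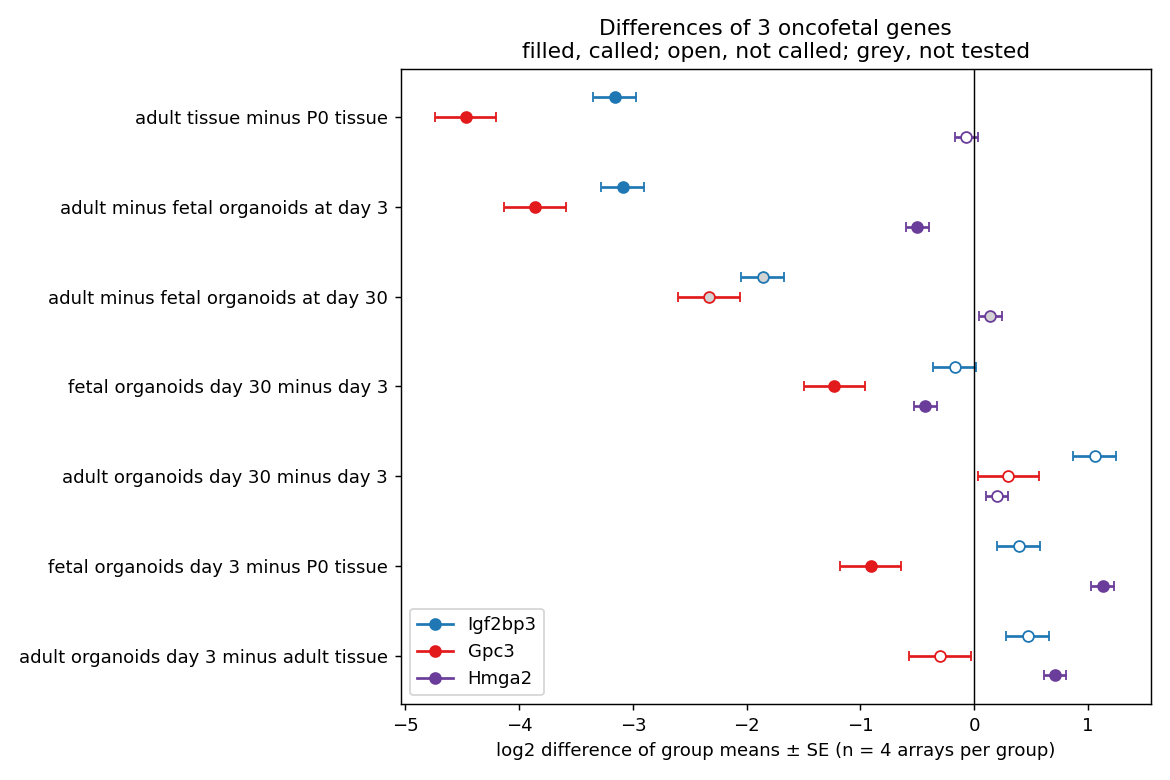
Log2 differences of group means ± SE (4 arrays per group) for Igf2bp3, Gpc3 and Hmga2 in 7 comparisons, the group named first minus the other. Filled points passed a limma adjusted p under 0.05, open points did not, and grey points (day 30 between ages) were not tested; Igf2bp3 and Gpc3 lie between -4.47 and -3.09 in the tissue and day 3 age comparisons, and Hmga2 is positive where organoids are set against tissue.

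The insulin-like growth factor system, whose ligand RNA Igf2 is bound by IGF2BP proteins, held several genes that were lower with age. Of 15 listed genes 13 were measured. Mesenchyme markers fell in the same comparisons, 10 of 11 in tissue (median -1.31), 9 of 11 at day 3 (-1.05) and 10 of 11 in fetal culture (-1.15), and their part was not tested. In adult against P0 tissue 9 fell and 0 rose, with a median of -0.70 beside 0.081 for all genes, of which 12.3% fell. Igf2, the fetal growth factor, averaged 5.76 in adult and 8.63 in P0 tissue, a fall of -2.86 ± 0.13 (SE, limma adjusted p = 3.4e-14). Igfbp5, a binding protein, fell by 2.05 and the receptor substrate Irs1 by 1.64 on the log2 scale. In adult against fetal organoids at day 3 7 fell and 0 rose, with a median of -0.58 beside -0.005 for all genes, of which 10.1% fell. There Igfbp5 was lower by -2.19, Igf2 by -1.72 ± 0.13 (SE, limma adjusted p = 2.1e-09), Igfbp7 by -1.59 and Igfbp3 by -1.54. Without fetal day 3 arrays 2 and 3 the calls of Igfbp5 (-1.46, limma adjusted p = 0.083), Igfbp7 (-1.20, adjusted p = 0.27) and Irs1 (-0.44, adjusted p = 0.25) were lost. Igf2 (-1.65) and Igfbp3 (-1.31) were still called. Igfbp1 (-0.49, limma adjusted p = 0.01) was newly called, and 5 fell in all. In fetal organoids between day 3 and day 30, 5 fell, among them Igfbp3 (-1.53) and Igf2 (-1.35), and 0 rose. The median was -0.54 beside -0.032 for all genes, of which 8.85% fell. Igf2 averaged 5.56 in adult and 5.79 in fetal organoids at day 30, with overlap. In adult organoids over culture 0 of 13 passed the limma test. Organoids set against tissue gave 0 higher and 8 lower in fetal day 3 organoids against P0, beside 30.6% and 13.9% of all genes. Adult day 3 organoids against adult tissue gave 2 higher and 5 lower, beside 22.1% and 13.5%.

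Of the RNAs known to be bound by IGF2BP proteins, those of Igf2 and Ptgs2 fell beside Igf2bp3. Of 11 listed, 10 were measured, and 3 fell in adult against P0 tissue (Igf2, Ptgs2 and Gli1) and 0 rose. The list median there was 0.14, beside 0.081 for all genes, of which 12.3% fell and 15.0% rose. At day 3, adult organoids were lower than fetal ones in 4, led by Ptgs2, the prostaglandin synthase, at -1.98 ± 0.26 (SE, limma adjusted p = 8.5e-06). Without fetal day 3 arrays 2 and 3 it was -1.43 (adjusted p = 0.00068), behind Igf2 at -1.65. The cytoskeletal gene Actb was lower by -0.49 at day 3 on all arrays, and the list median was -0.37, beside -0.005. Of all genes 10.1% were lower in that comparison. In fetal organoids over culture Ptgs2 fell by 2.21 and Actb by 0.44 on the log2 scale, 2 of 4 that fell, beside -0.17 for Igf2bp3. Among all genes 8.85% fell there. Myc, a further client, was 1.61 higher in fetal day 3 organoids than in P0 tissue and 1.81 higher in adult day 3 organoids than in adult tissue. Between ages it passed no test at day 3 (0.47) or in tissue (0.26).

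Among genes of let-7 processing, Trim71 had the largest called fall in both age comparisons. This stem cell factor, itself a let-7 target known to act with LIN28A, averaged 4.70 in adult tissue and 5.50 in P0 tissue, a fall of -0.80 ± 0.11 (SE, limma adjusted p = 3.6e-06). At day 3 it averaged 4.74 in adult and 6.10 in fetal organoids, -1.35 ± 0.11 (SE, limma adjusted p = 7.9e-09). In fetal organoids it fell by 0.90 on the log2 scale to 5.19 at day 30 (limma, adjusted p = 3.1e-06). Tut4, which tails let-7 precursors bound by LIN28, was lower by -0.58 in adult tissue and -0.63 in adult day 3 organoids, where the call was lost without fetal day 3 arrays 2 and 3 (-0.41, limma adjusted p = 0.10). Dis3l2, which degrades the tailed precursors, was higher by 0.32 in adult than in fetal organoids at day 3. Lin28a, the sister of Lin28b, read 4.92 to 5.12 in mean over the organoid groups, above background, and passed no test between ages at day 3 (-0.14) or in tissue (0.16). In all, of 11 measured genes of 12 listed, 0 rose and 2 fell in adult tissue, and 1 rose and 2 fell in adult day 3 organoids. Of all genes, 12.3% were called lower in tissue, and 14.6% higher and 10.1% lower at day 3. The counts lie near these shares and are not read as a result of the list. The list medians were -0.20 and -0.14.

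Known let-7 targets other than the members fell in part. Of 24 listed genes 18 were measured, and in adult against P0 tissue 7 fell and 1 (Nr6a1, 0.32) rose, with a median of -0.15. Among all genes 12.3% fell and 15.0% rose there. Plagl2, a zinc finger factor, fell by 1.47, the receptor Igf1r by 1.27 and the DNA-binding Arid3a by 0.90 on the log2 scale. At day 3, 4 were lower and 0 higher in adult than in fetal organoids, with a median of -0.08. Of all genes 10.1% were lower and 14.6% higher there. Arid3a was lowest there at -1.61 ± 0.09 (SE, limma adjusted p = 4.1e-11), followed by Mycn (-0.91) and Plagl2 (-0.77). Arid3a also fell in fetal organoids over culture, by 1.07, where 4 fell and 1 (Cdk6, 0.42) rose, beside 8.85% and 6.81% of all genes. Without fetal day 3 arrays 2 and 3, 3 fell and 0 rose there.

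Mature let-7 was not measured by these arrays, whose probe sets read the precursor genes. All 12 precursor genes were measured. Their signals were low, with 4 above background in at least 1 tissue group and 7 in at least 1 day 3 organoid group. Between ages 0 of 12 were called in tissue, and 1, Mirlet7e, at day 3 (4.64 in adult and 5.18 in fetal organoids, -0.54 ± 0.14 SE, limma adjusted p = 0.0045). Its fetal day 3 arrays read 5.57, 5.24, 4.94 and 4.97, highest on array 1, whose background control probes also read highest. Mirlet7b was higher in day 3 organoids than in tissue at both ages, by 0.72 in fetal day 3 organoids against P0 tissue (limma, adjusted p = 0.0018) and by 0.55 in adult day 3 organoids against adult tissue (adjusted p = 0.013). In fetal day 3 organoids against P0 tissue 4 of 12 precursor genes were called, all higher, a share close to the 30.6% of all genes called higher in that comparison, and Mirlet7i and Mirlet7c-2 lay below background in P0 tissue. The mature sequences of the pair (RefSeq, GRCm38.p6), whose precursor genes were called with both groups above background, are shown with bases 2 to 8, the seed that pairs with targets, in capitals.
mmu-let-7e-5p: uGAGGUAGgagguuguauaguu
mmu-let-7b-5p: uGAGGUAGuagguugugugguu
Of the 12 precursor genes 11 were matched to a mature sequence, and these held 1 seed, GAGGUAG.

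Among the 5 other glypicans, all measured, Gpc4, the gene next to Gpc3 on the X chromosome, was higher in adult tissue and in adult day 3 organoids, where Gpc3 was lower. It averaged 7.94 in adult and 7.58 in P0 tissue (0.37 ± 0.12 SE, limma adjusted p = 0.03), and 7.83 in adult and 6.90 in fetal organoids at day 3 (0.92 ± 0.12 SE, limma adjusted p = 8.9e-06). Over culture Gpc4 rose in fetal organoids, to 7.57 at day 30 against 6.90 at day 3 (0.66, limma adjusted p = 0.00056). In fetal day 3 organoids against P0 tissue both genes were lower, Gpc4 by -0.67 (limma, adjusted p = 0.00014). Gpc6 was lower in adult than in P0 tissue (-0.66) and in adult than in fetal organoids at day 3 (-0.54), a day 3 call lost without fetal day 3 arrays 2 and 3 (-0.30, limma adjusted p = 0.16). Gpc1 was lower by -0.65 in adult organoids at day 3.

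Of the hedgehog pathway, whose ligands GPC3 binds, 14 of 15 listed genes were measured. In adult against P0 tissue 8 fell and 1 (Gas1, 0.28) rose, with a median of -0.42, beside 12.3% and 15.0% of all genes. The coreceptor Cdon fell by 1.16 and the receptor and target Ptch1 by 0.98 on the log2 scale. At day 3 the ligands Ihh (-0.69 ± 0.13 SE, limma adjusted p = 0.00033) and Shh (-0.47, adjusted p = 0.044) were lower in adult than in fetal organoids, and Ptch1 was higher (0.35, adjusted p = 0.038), with 4 lower and 1 higher in all. Among all genes 10.1% were lower and 14.6% higher there. Without fetal day 3 arrays 2 and 3, 2 of the list were lower and 0 higher. Shh (-0.40, limma adjusted p = 0.21) and Ptch1 (0.34, adjusted p = 0.13) were no longer called. In fetal organoids over culture Ptch1 rose by 0.49 (limma, adjusted p = 0.0066), and 3 others fell, of which 0 were called without those arrays. Among all genes 8.85% fell and 6.81% rose over fetal culture. The mesenchymal markers above fell in the same comparisons, unlike Gas1 in tissue and Ptch1 at day 3 and over fetal culture, which were higher. The part of mesenchyme was not tested.

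**Figure D4:**
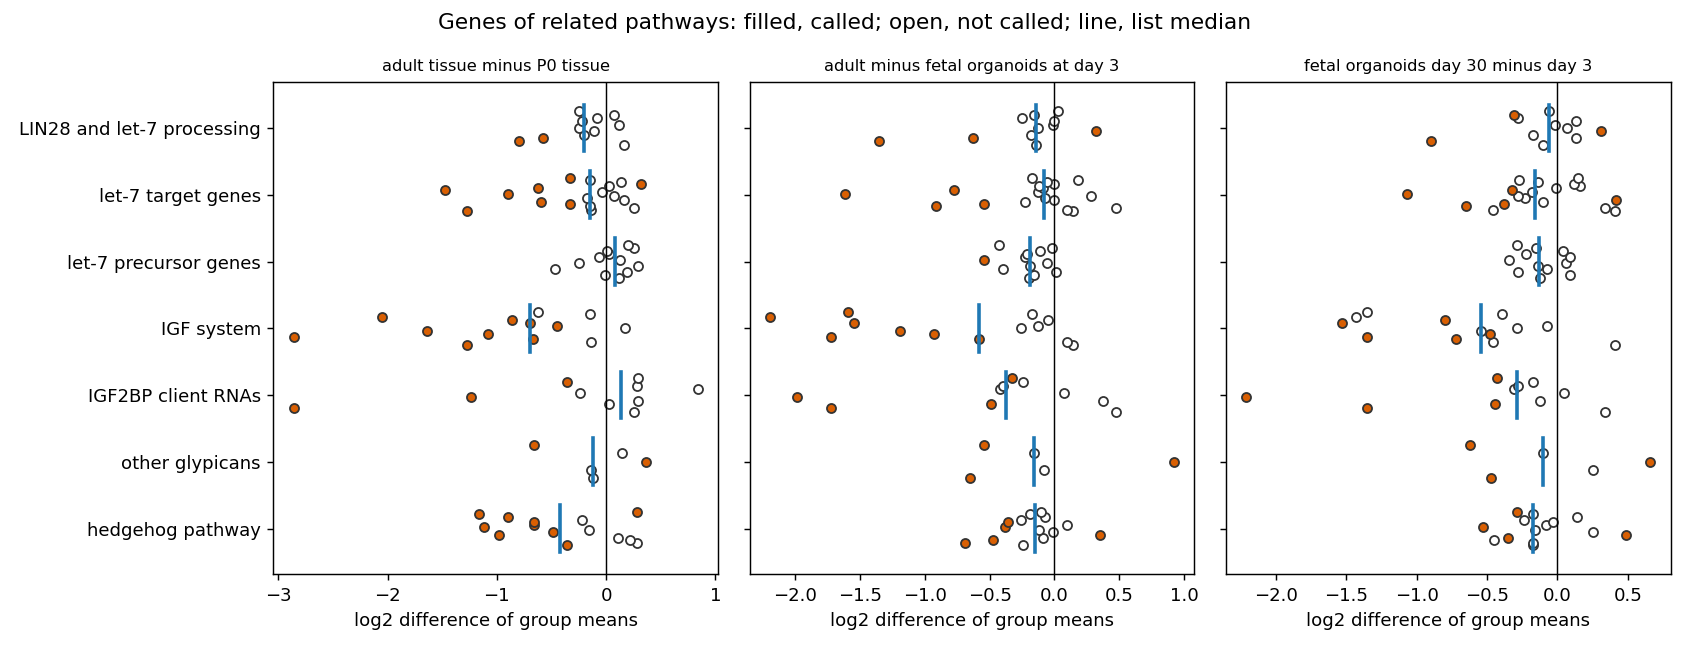
Log2 differences of group means (first group minus second) for each measured gene of 7 related lists in 3 comparisons. Filled points passed a limma adjusted p under 0.05, open points did not, and the upright line is the list median; the insulin-like growth factor list has its median furthest below 0 in all 3.

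Likeness across the 24 arrays was described for each member above background by the 5 genes with the highest Pearson correlation, with no test, since arrays of a group share their source. For Gpc3 these were H6pd (0.963), Cul7 (0.963), Peg3 (0.957), Folr1 (0.956) and Stk26 (0.955). Folr1, the folate receptor, averaged 5.79 in fetal day 30 organoids with single values of 6.66, 5.80, 6.25 and 4.45, the same order of arrays as Gpc3. Peg3, an imprinted gene, averaged 6.09 there with 6.34, 5.53, 6.95 and 5.55, where arrays 1 and 3 are again the higher ones. Folr1 and Peg3 were picked by correlation over these same arrays, so a like order of arrays is partly built in. For Igf2bp3 the 5 genes were Sesn2 (0.923), Dnmt3a (0.898), Trim44 (0.896), Slc38a1 (0.891) and Golm2 (0.889). Sesn2, a stress response gene, averaged 6.68 and 6.61 in adult organoids at day 30 and day 3, 7.42 and 7.54 in fetal ones, 6.60 in adult tissue and 7.43 in P0 tissue. For Hmga2 they were Mtap (0.934), Shmt2 (0.932), Phlda1 (0.924), Hmgn1 (0.922) and Gar1 (0.918). Shmt2, the mitochondrial serine hydroxymethyltransferase, averaged 8.84 in adult day 3 organoids and 7.07 in adult tissue, and 9.20 in fetal day 3 organoids and 7.20 in P0 tissue.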

How the data were processed

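RNA of 24 samples was hybridised to one-colour Affymetrix arrays after Trizol extraction and biotin labelling of 1 µg, per the labels' protocols. The authors deposited log2 signals, produced with Affymetrix Expression Console and RMA per the submitters' processing notes. RMA equalises array distributions, so a change of most genes 1 way would not show. The sources used here give no software version and no genome build. Of 72688 probe sets, 6732 were controls and 30604 named exactly 1 gene symbol, which gave 30142 genes. Of the 355 genes with several probe sets the highest mean was used.

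Group means of all 24 arrays were fitted with limma 3.58.1 in R 4.3.3 (18 residual and 4.25 prior degrees of freedom), and moderated two-sided p-values were Benjamini-Hochberg adjusted over all genes of a comparison. Calls were made below an adjusted p of 0.05. Background is the median of 5222 negative control probe sets per array. The fit was checked on simulated data. The members, lists, tests and alternatives were chosen with earlier results of these data known. Named genes are the members, up to 3 called genes of each list per comparison with the largest change, and the 5 genes most like each member. Lin28a, Nr6a1, Gas1, Ptch1, Igfbp1, Igfbp3 and Irs1 at day 3, and Myc between ages were added after their values were seen. Python 3.11.15 with pandas 2.3.3 and matplotlib 3.10.9 was used for tables and figures.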

Additional observations from a re-analysis of the deposited data

Results flagged for a closer look

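Igf2bp3 read 8.03 on P0 array 2, apart from the other P0 arrays at 7.75 to 7.76. Its gap to the nearest array passed Dixon's 95% limit, which chance passes in about 1 in 20 groups, and 18 groups were checked. The array still lay far above the adult tissue arrays.

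The age difference of Hmga2 differed between settings. It was -0.50 in day 3 organoids and -0.07 in tissue, a difference of -0.42 ± 0.14 (SE) with a limma adjusted p of 0.03 in a test added after the data were seen. Adjusted p ranged from 0.0078 to 0.15 over the alternatives.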

How the results depend on the processing

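The falls of Igf2bp3 and Gpc3 in adult tissue and in adult day 3 organoids and the rises of Hmga2 in organoids against tissue kept direction and call under all alternatives run, as did Hmga2 at day 3. Igf2bp3 spanned -3.30 to -3.09 in tissue and -3.24 to -3.00 at day 3, and Gpc3 spanned -4.67 to -4.38 and -3.98 to -3.74. The Igf2bp3 difference between age differences, 0.08, spanned -0.08 to 0.16 with single arrays left out; it reversed to -0.01 without fetal day 3 array 1 and to -0.08 without adult day 3 array 4, neither near the threshold. Genes called at an adjusted p under 0.01 numbered 5330 in tissue (8243 at 0.05), 2703 in fetal culture (4721), 4733 at day 3 (7427) and 8913 in fetal organoids against P0 (13409). At 0.05, without P0 arrays 2 and 3, genes called numbered 4973 in tissue and 8848 against P0. Without fetal day 3 arrays 2 and 3, they numbered 3039 in fetal culture at 0.05. Fewer arrays entered these fits. In fits of the compared groups alone, 2479 were called in fetal culture and 1 in adult culture (3 in the fit of all groups). Adult culture gave 7 with low genes left out, 5 with centred arrays, 369 with array weights and 3 to 190 with single arrays left out.

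The members called in fetal culture numbered 1 in place of 2 with the compared groups alone and without fetal day 3 arrays 2 and 3. In adult culture 1 in place of 0, Igf2bp3, was called with low genes left out and with array weights, and 0 to 1 with single arrays left out. Against P0, 1 in place of 2 was called without fetal day 3 arrays 2 and 3 or without P0 arrays 2 and 3. In adult day 3 organoids against adult tissue, 2 in place of 1 were called with low genes left out, compared groups alone, a second quantile normalization and array weights, and 1 to 2 with single arrays left out; the added gene was Igf2bp3, at adjusted p of 0.031 to 0.041. In fits of the compared groups alone Igf2bp3 was also called against P0 (limma, adjusted p = 0.019). The causes were not tested.

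Replicate numbers recur across groups, but same-numbered arrays deviated together with correlations of -0.313 to 0.29, and no comparison had every pair over 0.1, so the numbers are not taken as pairs. With the replicate block, calls numbered 7944 in tissue, 4489 in fetal culture and 3 in adult culture, and the members called were as without it. Low signal limits Lin28b and the let-7 precursors, and 4 arrays a group limit the rest.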
